A study of Mus musculus with 4 samples.

Results

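The genes described here are 10 effector genes of germinal centre B cells: Gcsam, Rgs13, Nuggc, Eaf2, Lmo2, Basp1, Klhl6, Myo1e, Mybl1 and Sugct. They were taken by symbol from the 37646 genes of each count table, as genes known to be raised in germinal centre B cells. That rule uses no measured value, but the members were chosen with earlier results of these data known. Each of the 10 symbols named 1 row. RNA came from B220+YFP+ cells sorted from the spleen of C57BL/6 normal control mice of genotype YFPstopF/+Cg1Cre/+. Cre driven from the Cg1 locus, that of the IgG1 heavy chain, removes a stop cassette and leaves YFP on for good, so the reporter also stays on in memory and plasma cells that descend from marked cells. Immunisation was with sheep red blood cells, repeated after 20 days, and cells were collected 10 days after the repeat. The 4 libraries form 1 group and are numbered 1 to 4 in the order of deposition. The lymphoma samples that the design text sets against them were not analysed here, so levels are compared between genes and between libraries only. The age of the mice was not given in the sources used here.

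Germinal centres are the sites in lymphoid follicles where activated B cells divide, mutate their antibody genes and are selected for affinity. Cells there must hold their position against chemokine gradients, temper antigen receptor signals, survive DNA damage and stay ready to die. The effector genes serve these ends: Gcsam and Rgs13 act on receptor signalling and motility, Myo1e and Basp1 at the membrane and the actin cortex, Klhl6 in protein turnover, Nuggc in genome protection, Eaf2, Lmo2 and Mybl1 in transcription, and Sugct in mitochondrial metabolism.

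Totals ran from 13777954 to 14629025 counts per library, so that 3 counts correspond to 0.205 to 0.218 CPM, the count scaled to the total of the library. Mitochondrial genes took 18.1 to 23.3% of the counts, highest in library 2, and immunoglobulin genes 2.35 to 5.48%, lowest in library 3. B lineage markers were set against T cell markers, which checks the lineage and not the germinal centre state. Markers of other B cell states are given further below. The 6 B lineage markers, of which Cd79b was highest by TPM, summed to 6028 to 7126 CPM and the 6 T cell markers, with Trac highest, to 80.7 to 232 CPM. Library 3 alone carried the Y-linked Ddx3y (1307 counts, at most 3 in the others). Its count of Xist, which female cells express, was 6, against 8689 to 12160 in the others. Sex therefore cannot be told apart from any other difference of that library. Nothing in the labels says that the libraries came from separate animals, though by these transcripts library 3 came from other animals than the rest. The p-values below measure only the spread between these samples, which may in part be technical.

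The genes lie on 7 chromosomes of GRCm38, the assembly also called mm10. Klhl6 (19946496 to 19983037), Eaf2 (36792884 to 36875003) and Gcsam (45610380 to 45622867) are on chromosome 16 without touching one another, and Mybl1 (9667415 to 9700209) and Rgs13 (144138654 to 144177372) are far apart on chromosome 1. Lmo2 is on chromosome 2 (103957986 to 103981878), Myo1e on 9 (70207350 to 70399766), Sugct on 13 (16857472 to 17695553), Nuggc on 14 (65598546 to 65648531) and Basp1 on 15 (25363277 to 25413764). Of the 10 genes only Sugct shares annotated exon bases with another gene, 196 bases with Mplkip on the opposite strand, and the strand setting of the counting was not given in the sources used here.

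RefSeq promoter windows (GRCm38.p6, 250 bases before to 50 after a start) were found for 7 of the 10 genes, not for Lmo2, Mybl1 or Nuggc. The stretches before the annotated starts of 4 genes are shown. Rgs13 and Basp1 were taken because they rose and fell most alike across the libraries, each relative to its own mean. Gcsam was taken as the most variable of the well-expressed genes, and Klhl6 because it had an E-box. The stretches are read 5′ to 3′ on the strand of the gene, and capitals mark the motif matches named after them. Rgs13 is from chr1:144177373-144177622 (minus strand), Basp1 from chr15:25413765-25414014 (minus strand), Gcsam from chr16:45610190-45610379 (plus strand) and Klhl6 from chr16:19983050-19983299 (minus strand).
Rgs13: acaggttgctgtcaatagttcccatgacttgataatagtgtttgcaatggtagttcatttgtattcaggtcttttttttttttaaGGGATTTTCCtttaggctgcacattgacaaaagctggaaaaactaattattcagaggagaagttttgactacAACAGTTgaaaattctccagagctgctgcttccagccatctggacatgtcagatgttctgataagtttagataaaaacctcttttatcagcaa
Basp1: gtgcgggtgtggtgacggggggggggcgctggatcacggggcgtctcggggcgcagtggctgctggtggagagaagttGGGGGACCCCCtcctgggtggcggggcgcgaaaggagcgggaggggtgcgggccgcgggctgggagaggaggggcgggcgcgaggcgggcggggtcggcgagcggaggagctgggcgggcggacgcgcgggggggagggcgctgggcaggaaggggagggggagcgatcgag
Gcsam: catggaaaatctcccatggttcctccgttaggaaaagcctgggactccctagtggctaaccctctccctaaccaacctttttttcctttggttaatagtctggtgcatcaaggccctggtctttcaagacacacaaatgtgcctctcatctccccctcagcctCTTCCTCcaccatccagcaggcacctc
Klhl6: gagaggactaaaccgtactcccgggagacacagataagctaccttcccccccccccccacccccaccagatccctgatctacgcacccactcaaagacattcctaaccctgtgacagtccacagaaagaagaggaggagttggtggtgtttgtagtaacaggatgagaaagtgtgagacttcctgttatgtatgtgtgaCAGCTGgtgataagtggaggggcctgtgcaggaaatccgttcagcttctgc

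The upstream sequences of Rgs13 and Basp1 differed widely in composition. That of Basp1 was 78.8% G and C with 30 CpG pairs, and that of Rgs13 was 36% G and C with 0 CpG pairs. Gcsam had 1 CpG pair at 51.6% G and C, and Klhl6 had 4 at 52.8%. In all 9 motifs were searched on both strands of the 300-base windows, taking for each gene the window nearest its annotated start, and no matches of different motifs overlapped. The NF-κB element, searched by its usual ambiguity code, matched in Rgs13 and Basp1, and in 4.50% of all 32817 windows. The PU.1 and ETS core GAGGAAG matched in Gcsam (on the minus strand of the stretch shown) and Eaf2, and in 13.6% of all windows. The E-box CAGCTG matched in Klhl6 and in 16.3% of windows, the MYB element AACNGTT in Rgs13 and in 4.46%, and the BCL6 and STAT palindrome TTCNNNGAA in Eaf2 and in 8.29%. The octamer ATGCAAAT, TATAAA, the cyclic AMP element TGACGTCA and the MEF2 element (by its ambiguity code) matched in 0 of the 7 windows, and in 1.74, 13.6, 1.79 and 3.19% of all windows. Matches describe letters in a short window and say nothing on binding.

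Of the 10 genes, 9 were expressed well above background in every library, and Sugct was nearly silent. Levels are given in TPM, the count per exon length scaled to the same sum in every library, so that genes can be compared. Median mean level of the 10 genes was 106 TPM. Leaving the mitochondrial and immunoglobulin genes out of the total raised it to 229 TPM, and all 10 genes moved up with it.

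Basp1, which encodes a lipid-anchored protein of the inner plasma membrane, was the highest. It stood at 300.2, 179, 366 and 297 TPM in libraries 1 to 4 (285 ± 77.8, SD, n = 4), above 98.0% of the 12475 genes with a mean of at least 1 CPM. Library 2 was the low one. Of its relatives, Marcksl1 (278 ± 61.8 TPM) did not differ from it beyond the spread, with a Basp1 to Marcksl1 ratio of 0.894 to 1.14 in the libraries (exact two-sided sign-flip permutation p = 0.875, n = 4). Marcks stood at 19.5 ± 3.28 TPM, and Gap43, the neuronal relative, at 0.077 ± 0.099. Of the 2 relatives tested for variation between libraries (edgeR, below), 0 passed. Only 0.00835% of the 11982 genes tested passed, so that 0 in this list and in those below does not mark their genes as steady.

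Klhl6, the substrate adaptor of a CUL3 ubiquitin ligase, was next, at 265, 167, 246 and 208 TPM (222 ± 43.4, n = 4). Library 2 was again lowest. Its partner genes were all present, led by the ubiquitin-like modifier gene Nedd8 (187 ± 27.5 TPM) with the scaffold gene Cul3 at 92.8 ± 25.2. The substrate gene Rc3h2, which encodes the mRNA decay factor Roquin-2, was the lowest of the list at 5.60 ± 0.53. Of these 5 genes 0 passed the variation test. Library 2 had the lowest CPM for all 5, as it did for 37.5% of the 12475 genes with a mean of at least 1 CPM.

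Rgs13, which encodes a GTPase-activating protein that switches off Gαi and Gαq after chemokine receptors fire, stood at 153, 83.8, 183 and 140.2 TPM (140.1 ± 41.7, n = 4). Library 2 lay well under the other 3. In a list of Gα subunit genes and upstream chemokine receptor genes, all were expressed apart from Gnai1 (0.038 ± 0.076 TPM), with Gnai2 highest at 483 ± 79.5. None of the 7 tested passed the variation test. Mast cells also express Rgs13, and the 6 mast cell and basophil markers, of which Prss34 was highest by TPM, summed to 1.09 to 3.90 CPM. Among them Fcer1a had 0 counts in 3 libraries, while Kit had 54, 14, 22 and 38 counts in libraries 1 to 4. The part of these cells in the Rgs13 level was not tested.

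Nuggc, which encodes a nuclear GTPase of germinal centre B cells linked to genome protection, stood at 144, 107, 166 and 120.2 TPM (134 ± 26.0, n = 4). Its spread was small, 14.05% of the mean by CPM.

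Myo1e, a class I myosin that ties membrane to actin, stood at 102, 85.0, 136 and 101 TPM (106 ± 21.7, n = 4). Of its class, Myo1g (171 ± 19.7) and Myo1c (120.2 ± 19.9) were higher, Myo1f (22.9 ± 3.71) was lower, and Myo1h (1.01 ± 0.51), Myo1d (0.766 ± 0.180) and Myo1a (0.592 ± 0.398) were near the bottom. Within each library Myo1e was 0.467 to 0.723 times Myo1g and 3.23 to 6.56 times Myo1f. Each direction held in 4 of 4 libraries, where an exact two-sided sign-flip permutation gave p = 0.125, the smallest that 4 libraries allow. None of the 5 myosins tested passed the variation test. Neutrophils and macrophages also express class I myosins, and their marker lists, headed by S100a9 and Lyz2, summed to 29.1 to 66.9 and 94.5 to 155 CPM. Their part in the Myo1e level was not tested.

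Lmo2, which encodes a LIM-only adaptor that bridges DNA-binding partners, was the steadiest of the 10 by TPM, at 105, 110.4, 110.9 and 97.2 (106 ± 6.35, n = 4). With library sizes scaled by TMM it was not, as Myo1e (1.25-fold) and Nuggc (1.26-fold) then ranged less between libraries than Lmo2 (1.32-fold). The Lmo2 co-factor gene Ldb1 was at 110.6 ± 10.8 TPM, and the basic helix-loop-helix partner Lyl1 led the list of 14 complex genes at 293 ± 25.5. The partners of blood stem and red cells were near the bottom, with Tal1 at 0.432 ± 0.611. Of its paralogues Lmo4 stood at 72.6 ± 12.2, while Lmo1 and Lmo3 had 0 counts in 3 of 4 libraries. None of the 9 genes tested in this list passed the variation test. Erythroid and endothelial cells also express Lmo2, and their 5 markers each summed to 15.7 to 58.0 CPM, highest in library 4 and led by Hbb-bs, and to 81.7 to 114 CPM, nearly all from Pecam1, which leukocytes also express. Of the other 4 endothelial markers Cdh5 had 41, 19, 21 and 33 counts (1.07 ± 0.374 TPM), and Kdr, Tek and Emcn each stood at 0.12 TPM or lower. The part of these cells in the Lmo2 level was not tested.

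Gcsam, an adaptor that recruits the kinase Syk and slows cell movement, varied more than any of the other 8 well-expressed genes. It stood at 92.3, 24.9, 57.2 and 50.01 TPM (56.1 ± 27.9, n = 4). Library 1 was the highest and library 2 the lowest, with a gap between each and the other 2. Of its 7 partner genes, from Grb2 (243 ± 37.1 TPM) down to the guanine nucleotide exchange factor gene Arhgef12 (4.94 ± 0.282), 0 passed the variation test. Gcsam did not pass it either, and 0.00835% of all tested genes did.

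Mybl1, the A-MYB transcription factor of dividing germinal centre cells, followed the same course at 60.7, 19.4, 36.8 and 32.3 TPM (37.3 ± 17.2, n = 4). Its paralogue Mybl2, a general cell cycle factor, stood at 40.9 ± 8.57 TPM, the ratio of Mybl1 to Mybl2 being 1.66 in library 1, 0.572 in library 2 and 0.693 and 0.805 in libraries 3 and 4. Myb, the paralogue of progenitor cells, stood at 6.21 ± 1.79 TPM. Mybl1 was 3.86 to 12.7 times Myb in the 4 libraries (exact two-sided sign-flip permutation p = 0.125, n = 4). Of the 8 genes of its list, headed by the MuvB gene Lin37 (62.6 ± 9.51 TPM) and ending with Lin9 (5.05 ± 0.48), 0 passed the variation test.

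Eaf2, which binds the ELL elongation factors and favours death of germinal centre B cells, stood at 38.3, 23.7, 42.3 and 37.7 TPM (35.5 ± 8.11, n = 4). Library 2 was low and the other 3 were close together. Its exon union is 4370 bases and its longest transcript 2377, so its TPM depends on the length taken. Its paralogue Eaf1 was lower in 4 of 4 libraries (23.3 ± 5.56 TPM, Eaf2 to Eaf1 ratio 1.44 to 1.64, exact two-sided sign-flip permutation p = 0.125, n = 4). Of the 10 genes of the elongation list, from Cdk9 (71.0 ± 16.03 TPM) to Ell3 (3.24 ± 0.74), 0 passed the variation test.

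Sugct, a mitochondrial coenzyme A transferase that acts on glutarate, had 10, 2, 0 and 4 counts in libraries 1 to 4, or 16 of 56802329 counts in all. In TPM these are 0.453, 0.0892, 0 and 0.184, and the 0 in library 3 allows up to 0.148 TPM at 3 counts, for counting error only. Its exonic neighbour on the other strand, Mplkip, stood at 5.18 ± 1.52 TPM. How reads in the shared exon bases were counted is not known, so such reads could be lost or put to either gene. Of 6 genes of the same lysine and glutarate route, Etfa was highest (43.4 ± 9.54 TPM) and Aass lowest (0.041 ± 0.033), and 0 of the 4 tested passed the variation test.

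**Figure D1:**
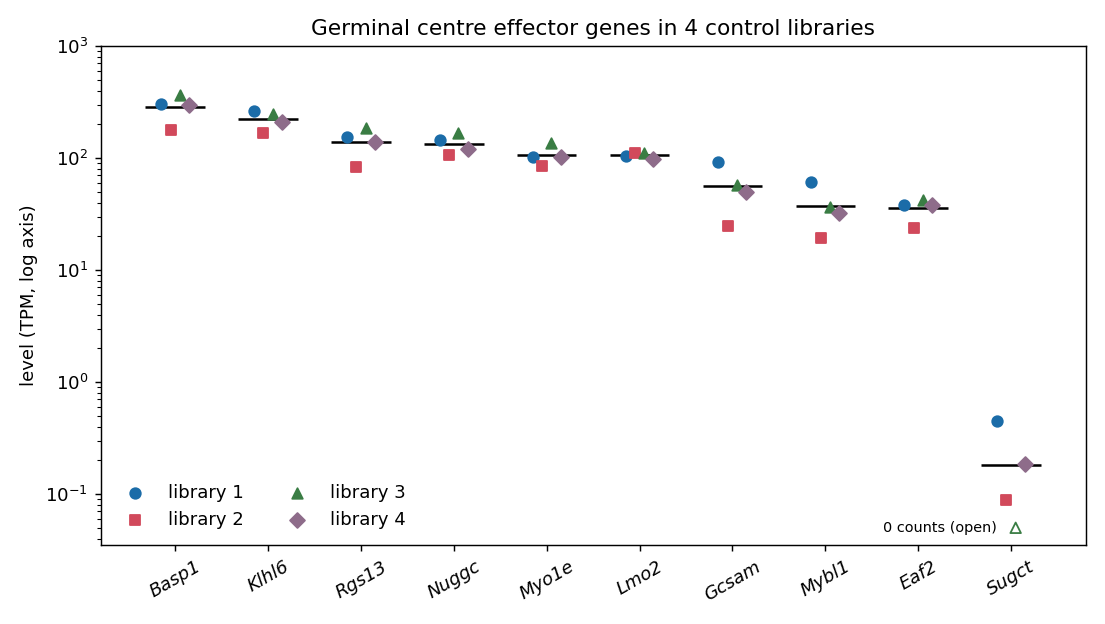
Level of each gene in each library (TPM on a log axis), with a black bar at the mean of the 4 libraries and an open symbol for 0 counts. Library 2 (squares) is lowest for Basp1, Klhl6, Rgs13, Nuggc, Myo1e, Gcsam, Mybl1 and Eaf2, Lmo2 is nearly level, and Sugct lies far below the rest.

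The order of the genes by level was only partly firm. Of the 9 neighbouring pairs in that order, 6 kept their direction in 4 of 4 libraries: Basp1 over Klhl6, Klhl6 over Rgs13, Nuggc over Myo1e, Lmo2 over Gcsam, Gcsam over Mybl1, and Eaf2 over Sugct. Their mean log2 TPM ratios were 0.34 ± 0.24, 0.70 ± 0.25, 0.34 ± 0.11, 1.06 ± 0.81, 0.56 ± 0.13 and at least 7.43 ± 0.74, where Sugct was set to 3 counts in the 2 libraries below that. Rgs13 and Nuggc (0.02 ± 0.26), Myo1e and Lmo2 (-0.02 ± 0.28), and Mybl1 and Eaf2 (-0.01 ± 0.45) did not differ beyond their spread. With the length of the longest transcript instead, Mybl1 lay below Eaf2 in 4 of 4 libraries (-0.77 ± 0.45). The exact two-sided sign-flip permutation over libraries cannot go below p = 0.125 with n = 4, and the smallest value adjusted over the 9 pairs was p = 0.188. On CPM, which leaves gene length out, 4 pairs held in 4 of 4 libraries, and only Klhl6 over Rgs13 and Eaf2 over Sugct were among the 6. Rgs13 then lay below Nuggc by a log2 ratio of -0.75, Nuggc below Myo1e by -0.67 and Gcsam below Mybl1 by -0.10, each in 4 of 4 libraries.

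**Figure D2:**
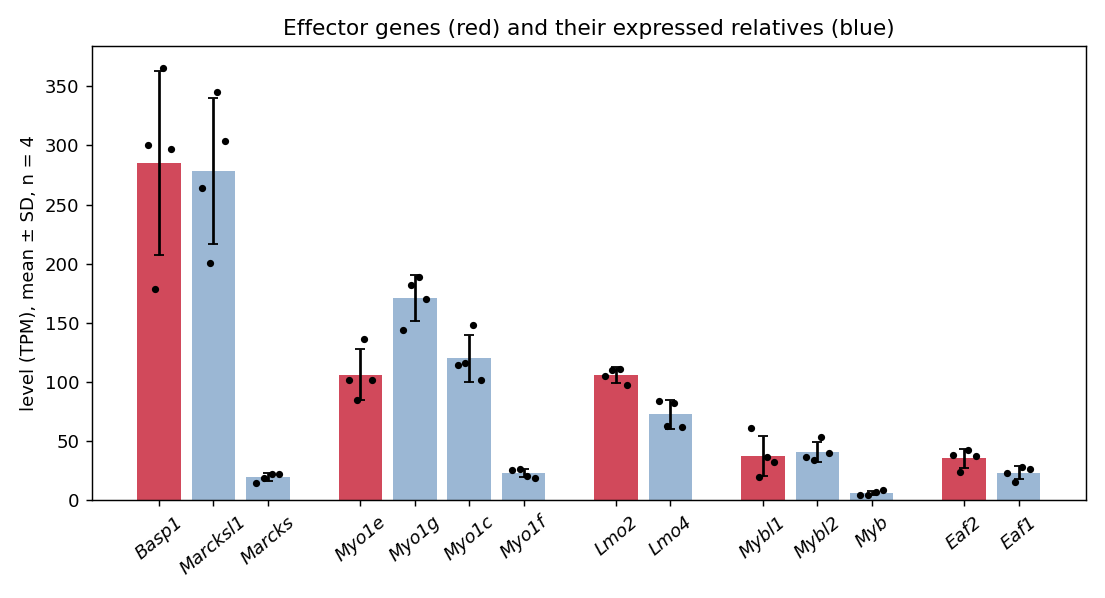
Level (TPM) of 5 effector genes (red bars) and their expressed relatives (blue bars), as mean ± SD over 4 libraries with a dot per library. Basp1 and Marcksl1 overlap, Myo1e stands below Myo1g, and the libraries of Mybl1 scatter more than those of Mybl2.

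Library 2 was low for nearly all of these genes. By CPM, 8 of the 9 expressed genes had their lowest level there, against 37.5% of the 12475 genes with a mean of at least 1 CPM. The exception was Lmo2, which had its highest level in library 2: 104, 113, 96.9 and 93.2 CPM in libraries 1 to 4. The median deviation of the 9 genes from their own means was 0.19, -0.45, 0.15 and -0.05 log2 CPM in libraries 1 to 4, and that of all genes was 0.02, -0.08, 0.04 and 0.04. With library sizes scaled by TMM, by DESeq2 size factors, or without mitochondrial and immunoglobulin genes, 7 of the 9 remained lowest in library 2 (26.5, 25.6 and 27.2% of all genes), Nuggc then being lowest in library 4. These counts carry no test, since the genes were named with results of these libraries known.

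Ratios of counts within a library do not depend on any scaling, and Lmo2 was taken as the denominator after its opposite course was seen. The count of Gcsam was 1.39, 0.356, 0.815 and 0.813 times that of Lmo2 in libraries 1 to 4. Mybl1 to Lmo2 was 1.44, 0.438, 0.8285 and 0.8298. These ratios restate the contrast of the CPM values and add no separate evidence.

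**Figure D3:**
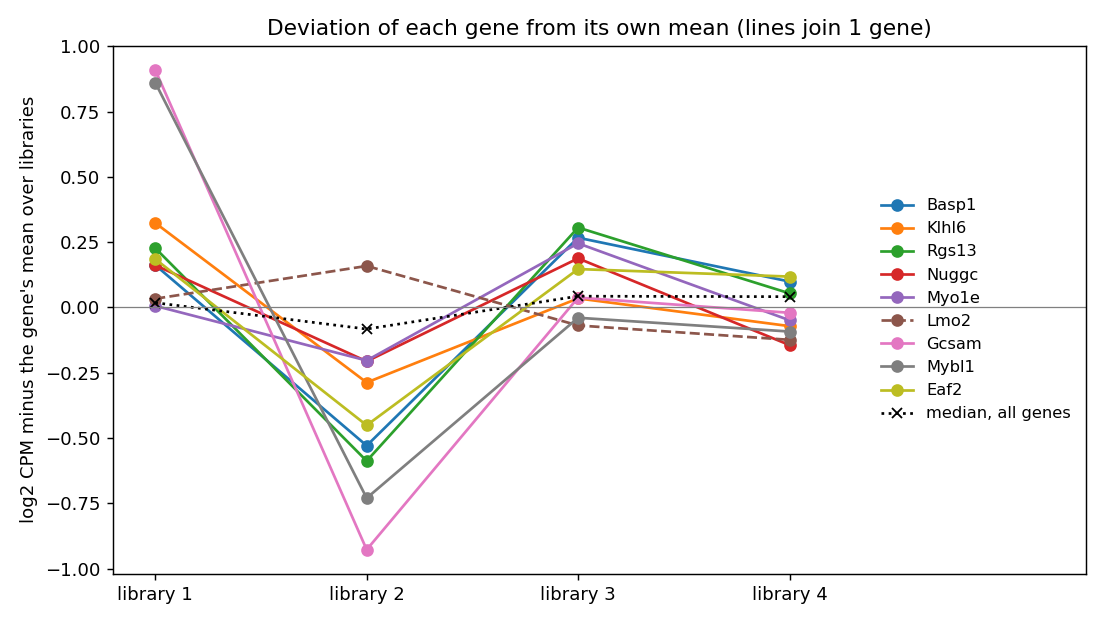
Log2 CPM of each gene in each library minus the mean of that gene over the 4 libraries. Lines only join the points of 1 gene, Lmo2 is dashed, and the dotted line is the median of all 12475 genes: Gcsam and Mybl1 run from 0.91 and 0.86 in library 1 to -0.93 and -0.73 in library 2, while Lmo2 is at 0.16 in library 2.

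Likeness of profiles was measured as the root-mean-square distance between profiles in log2 CPM over the 4 libraries, a description with no test. Over the 36 pairs the median distance was 0.26. Basp1 and Rgs13 were the closest pair at 0.05, with Basp1 counts 2.38 to 2.59 times those of Rgs13 in every library. Gcsam and Mybl1 kept a count ratio of 0.813 to 0.984. The farthest pair was Lmo2 and Gcsam at 0.70, followed by Lmo2 and Mybl1 at 0.61, and the median over the 8 pairs with Lmo2 was 0.38 against 0.22 for the others.

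Genes outside the set with the profile nearest to the median profile of the 9 were sought among 8337 genes with a mean of at least 10 CPM. The 5 nearest were Carhsp1, Pkp4, Asf1b, Rpl15 and Cfl1, at distances of 0.0458 to 0.0471 log2 CPM over 4 libraries. The histone chaperone gene Asf1b stood at 101, 65.7, 101 and 85.5 CPM and the actin-severing cofilin gene Cfl1 at 1253, 778, 1182 and 1028 CPM. Rpl15 has many processed copies in the genome, and its level is uncertain.

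The differences between libraries were then tested gene by gene with edgeR over the whole table, asking which genes varied more than their expression level would give. Of the 10 genes 9 could be tested, and Sugct did not reach the filter on low counts. None of the 9 passed at an edgeR quasi-likelihood adjusted p of 0.05, at which 0.00835% of the 11982 tested genes passed (1 gene). Before adjustment 2 of the 9, Gcsam and Mybl1, had p under 0.05, against 4.97% of tested genes, and DESeq2 marked 1 of the 9, Gcsam, as a dispersion outlier, against 1.33% of tested genes.

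Gcsam ranged 3.57-fold by CPM, from 40.4 in library 2 to 145 in library 1, with 79.0 and 75.8 in libraries 3 and 4. Its variation was 17.2 times the trend (edgeR quasi-likelihood adjusted p = 0.448, rank 128 of 11982). Mybl1 ranged 3.01-fold, from 49.7 to 149.8 CPM with 80.3 and 77.4 in libraries 3 and 4, at 13.96 times the trend (edgeR quasi-likelihood adjusted p = 0.571). Only 5.61% of the 12475 expressed genes had a larger fold range than Gcsam and 8.02% a larger one than Mybl1. Without the filter on low counts both passed (edgeR adjusted p = 0.0167 and 0.0464), as did 262 genes in all.

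Both ends of these ranges rest on single libraries. Without library 1 the range of Gcsam fell to 1.95-fold and that of Mybl1 to 1.61-fold, and without library 2 they were 1.91-fold and 1.94-fold. Rgs13 (1.86-fold), Basp1 (1.74-fold), Eaf2 (1.56-fold) and Klhl6 (1.53-fold) were wider than the median expressed gene at 1.46-fold, and Myo1e (1.37-fold), Nuggc (1.31-fold) and Lmo2 (1.22-fold) narrower. Without library 2 the ranges of Rgs13 and Basp1 were 1.19-fold and 1.12-fold. Counting error was small beside all of these, at 1.62 to 3.21% of the level of the 9 genes against a spread of 8.74% for Lmo2 to 51.1% for Gcsam.

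**Figure D4:**
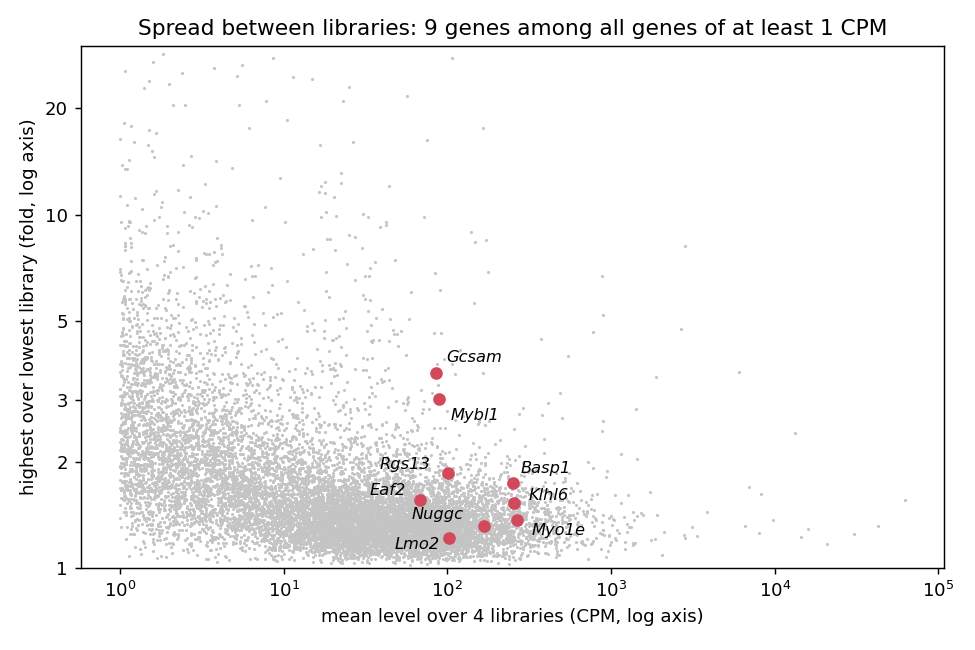
Fold between the highest and the lowest library against mean CPM, both on log axes, for genes with a mean of at least 1 CPM (grey; 43 genes above 30-fold or with a 0 are not drawn) and the 9 expressed effector genes (red). Gcsam at 3.57-fold and Mybl1 at 3.01-fold stand above most genes of their level, and Lmo2 at 1.22-fold lies near the bottom.

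Other genes of the germinal centre programme were set beside them in a list of 12. The ephrin gene Efnb1 stood at 62.3, 24.5, 38.6 and 32.7 TPM in libraries 1 to 4, highest and lowest in the same libraries as Gcsam. Bcl6, the repressor that sets up the germinal centre programme, stood at 100.2, 48.5, 84.1 and 54.5 TPM, again highest in library 1 and lowest in library 2. Both were picked after their values were seen. By CPM 5 of the 12 genes were highest in library 1 and lowest in library 2, as were 4 of the 9 effector genes and 12.5% of all genes. Of the 12 genes, 0 passed the variation test. By edgeR 3 of the 12 had an unadjusted p under 0.05, Bcl6 and Efnb1 among them, against 4.97% of tested genes. DESeq2 marked 1 of the 12 as a dispersion outlier, against 1.33% of tested genes. The list ran from the co-activator gene Pou2af1 (685 ± 192 TPM) to Stmn1 (17.6 ± 5.19). By CPM 8 of its 12 genes were lowest in library 2, against 37.5% of all genes. Its median deviation was 0.38, -0.28, 0.12 and -0.17 log2 CPM.

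Markers of other B cell states were summed in each library for comparison. The 6 naive B cell markers, led by Klf2, summed to 1633, 2927, 1928 and 2182 CPM in libraries 1 to 4, highest in library 2, where 5 of 6 had their highest level, against 16.3% of all genes. The 6 memory markers, of which Ccr6 was highest by TPM and not by CPM, summed to 135, 191, 124 and 113 CPM, again with 5 of 6 highest in library 2. The 6 proliferation markers, of which Mcm5 was highest by TPM and not by CPM, summed to 2196, 1642, 2931 and 2243 CPM. All 6 were lowest in library 2, against 37.5% of all genes. Plasma cell markers, led by Jchain, were at 2419, 2421, 1178 and 2287 CPM, low in library 3 where the effector genes were not low. T cell markers were at 232, 106, 80.7 and 192 CPM. By edgeR 0 markers of these 5 lists passed the variation test. An unadjusted p under 0.05 by edgeR was found for 2 of 6 naive, 3 of 6 memory and 4 of 5 tested plasma cell markers. The same held for 6 of 6 T cell and 0 of 6 proliferation markers, against 4.97% of all tested genes. DESeq2 marked Klf2 and Jchain as dispersion outliers, against 1.33% of tested genes. In the lists of partners and relatives above, 0 genes had an unadjusted p under 0.05 by edgeR and 0 were DESeq2 outliers. At those shares of all tested genes, lists this short would hold few or none. The part of these cell types in the effector gene levels was not tested. In sorted bulk RNA, fewer germinal centre cells and less RNA of these genes per cell cannot be told apart.

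**Figure D5:**
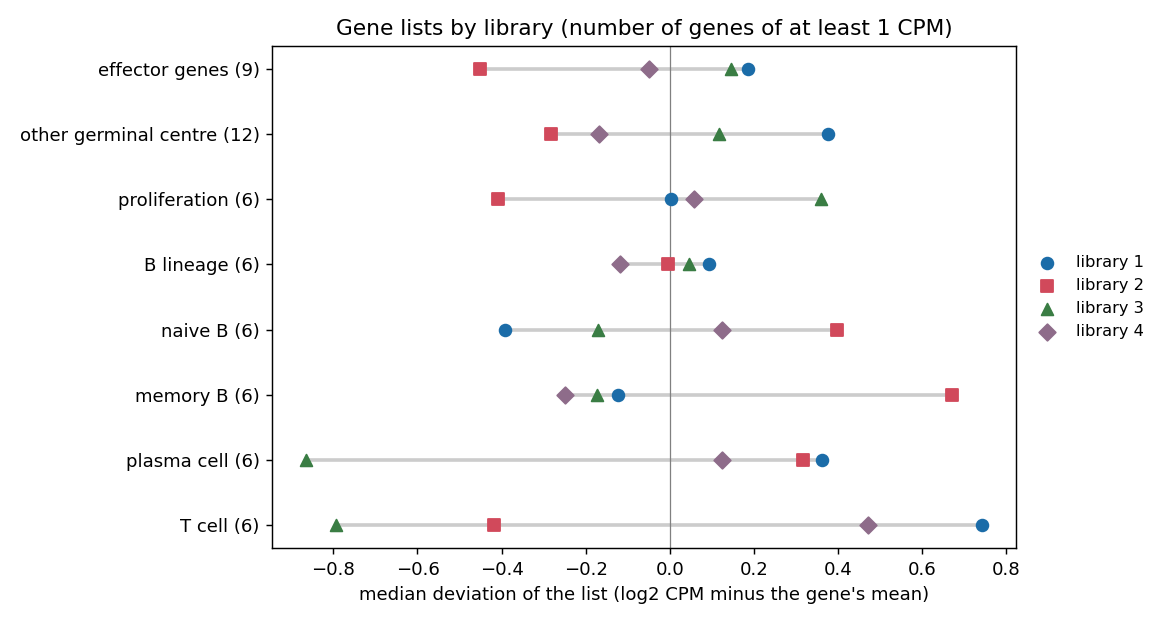
Median deviation of each gene list from the genes' own means (log2 CPM) in each library, with the number of genes in brackets and a grey line over the range. In library 2 (squares) the effector, other germinal centre and proliferation lists are at -0.45, -0.28 and -0.41, B lineage is near 0, and naive and memory lists are at 0.40 and 0.67.

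Together the 10 genes took 0.164% of all counts in library 1 (exact Clopper-Pearson 95% interval 0.161 to 0.166%), 0.107% in library 2 (0.105 to 0.109%), 0.151% in library 3 (0.149 to 0.153%) and 0.133% in library 4 (0.131 to 0.135%). The 4 intervals did not overlap. Such intervals, like the limit given for Sugct, hold counting error alone: without molecular identifiers, several reads can stem from 1 molecule.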

How the data were processed

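Poly(A) RNA was sequenced in 4 libraries of 1 group (single-end reads of 50 nt, DNBseq). The authors deposited raw counts per gene as whole numbers, per the file headers and values. The submitters' processing notes name FastQC, STAR 2.5.2b, featureCounts 1.6.0 and mm10, with no role or order. No annotation release, strand setting or rule for multi-mapped reads is stated in the labels. All 4 count columns were used (13777954 to 14629025 counts each).

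TPM was computed from counts and GENCODE M21 exon unions (GRCm38), which 37536 of 37646 identifiers matched without version suffix. CPM used the total count. Variation was assessed in edgeR 4.0.16 (R 4.3.3) with filterByExpr, TMM and an intercept-only quasi-likelihood model (glmQLFit). Each gene's quasi-dispersion, divided by the trend, was compared with the upper tail of F and adjusted by Benjamini-Hochberg over all genes at 0.05. DESeq2 1.42.0 supplied size factors and dispersion outliers as alternatives. Gene pairs were compared by exact sign-flip permutation in Python 3.11.15. Other alternatives changed the filter, gene length, total or pseudocount, or left out each library in turn. The lowest library under other scalings was chosen after seeing the data.

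The members, lists and tests were chosen with earlier results of these data known. By rule the text names the 10 genes, their relatives, the highest and lowest gene of each pathway list, the highest of each marker list and the 5 nearest profiles. Cul3, Ldb1, Tal1, Fcer1a, Kit, Cdh5, Kdr, Tek, Emcn, Ddx3y, Xist, Mplkip, Bcl6 and Efnb1 were named after their values were seen. Some list members are not reported here.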

Additional observations from a re-analysis of the deposited data

Results flagged for a closer look

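Of 68 genes and summed lists checked, 9 had 1 library far from the other 3 by Dixon's gap ratio at its 95% critical value, which chance passes in about 1 of 20 groups. None of the 10 effector genes was among them. Library 4 stood apart for the summed erythroid markers (58.01 CPM, 15.65 to 19.95 in the others) and for Hbb-bs (121.7 TPM, 31.66 to 36.42), which is part of that sum. Library 4 also held the few counts of Gnai1 (0.151 TPM), Lmo1 (0.2034 TPM) and Lmo3 (0.09221 TPM), each at 0 in the others. With 0 in all others, any count sets the gap ratio to 1, so these flags carry no weight and the chance rate does not apply to them. Library 3 stood apart for the summed plasma cell markers (1178 CPM, 2287 to 2421). Library 2 stood apart for the germinal centre gene Stmn1 (9.867 TPM, 19.46 to 20.81) and, upward, for Pecam1 (37.86 TPM, 31.42 to 32.39). Library 1 stood apart for Myo1d (1.033 TPM, 0.6592 to 0.708).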

How the results depend on the processing

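The number of genes called for variation moved from 1 to 262 without a filter on low counts, to 63 with the robust option and to 159 as DESeq2 dispersion outliers, and ranged from 0 to 19 with 1 library left out, at 0 without library 2, 3 without library 4 and 19 without library 3. Of the effector genes 0 were called, except 2 without the filter and 1 as a DESeq2 outlier. Their adjusted p without the filter was 0.0167 for Gcsam and 0.0464 for Mybl1, and over the other edgeR settings 0.166 to 0.923 and 0.242 to 0.989. The median level moved from 106 to 229 TPM without mitochondrial and immunoglobulin genes and was 100.1 to 109 TPM with 1 library left out. The number of neighbouring pairs that kept the order of mean TPM in every library was 6 of 9. It ranged from 6 to 7 when a library was dropped and was 4 on CPM. On CPM, Rgs13 over Nuggc, Nuggc over Myo1e and Gcsam over Mybl1 turned over in every library. The median deviation of the effector genes in library 2 stayed between -0.45 and -0.36 under every setting run. With 1 library left out, that in library 1 ranged from 0.09 to 0.25, in library 2 from -0.41 to -0.39, in library 3 from -0.0032 (without library 2) to 0.25, and in library 4 from -0.14 to 0.13 (without library 1) so that the sign turned in libraries 3 and 4. These deviations are taken from a mean over the libraries kept, which changes with the library left out. No paired analysis was possible because there is 1 group. Of the 10 genes, counting error limits Sugct, with 0 to 10 counts.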
